A study of Lactuca sativa with 53 samples.

Results

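LsCBF1, which is also named LsERF028, is a C-REPEAT BINDING FACTOR gene of lettuce (Lactuca sativa). It was taken by its row Lsat_1_v5_gn_2_130641.1, which stood once in each of the deposited tables, so that 1 of the 24635 genes in either table is described. In the lettuce genome version 8 the gene lies on the minus strand of linkage group 2, from 210322269 to 210322862, as a single exon of 594 bases. It belongs to group III of the AP2/ERF family, which held 42 of the 224 family genes named by the study, and it is 1 of 14 genes named LsCBF.

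CBF proteins, also called DREB1, are transcription factors with an AP2 domain that bind the C-repeat (dehydration-responsive) element in promoters. In Arabidopsis, cold induces several CBF genes within hours, and their proteins activate cold-regulated genes that raise freezing tolerance. Other Arabidopsis members of the same clade are known for induction by drought or by high salinity, so the stress to which a given CBF gene responds differs within the clade.

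All plants were 18 days old when the treatments began and had been grown on soil with 16 h of light per day, at 20 °C. In the cultivar Salinas, the treated groups were salt (250 mM NaCl), heat (34 °C) and drought (watering withheld), each at 5, 24 and 48 h, and the untreated plants taken at 0 h were the control. In the cultivars UC96US23 and PI 284702, the treated groups were plants moved to 4 °C and taken after 4 h, after 24 h and after 7 days, and plants at 20 °C taken at 0 h were the reference. By the methods of the study, light was dimmer during the treatments than during growth, and dimmest in the cold, so a stress and its change of light cannot be told apart where plants are set against 0 h. Each group held 3 libraries, apart from PI 284702 at 0 h, which held 2, so that 30 Salinas libraries and 23 libraries of the other cultivars were used. The labels give the tissue as aerial tissue and the methods of the study as leaf, and it was not checked against marker genes, since no annotation of the gene identifiers was used here. Salinas is the cultivar of the reference genome, and the other cultivars were counted on the same gene models. How reads shared by near-identical genes were counted is not given in the sources used here. Fewer cells expressing a gene and less RNA per cell cannot be told apart in these bulk samples.

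Between 19144717 and 29521313 reads were counted per Salinas library, and between 17570370 and 27896716 per library of the other cultivars. The Salinas values are counts per 1000000 reads (CPM) in which every library size had first been multiplied by its own factor. They are called scaled CPM here, and a single read was worth 0.0300 to 0.0619 scaled CPM. The values of UC96US23 and PI 284702 are CPM without such a factor, with 0.0358 to 0.0569 CPM per read. A count of 0 allows up to 3 reads. These floors, and the intervals given for read ratios, cover counting error only. Each difference was tested with limma on log2(value + 0.5) over all genes tested in the table. A gene was called where the log2 difference was at least 1 in size and the p adjusted by Benjamini-Hochberg was at most 0.01. On this scale the change of a gene near the floor is understated.

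Salt raised LsCBF1 strongly, but late. The control libraries at 0 h held 0.269, 0.288 and 0.211 scaled CPM, and after 5 h of salt the libraries held 0.473, 0.503 and 0.541 scaled CPM. After 24 h of salt they held 8.48, 7.79 and 6.45 scaled CPM. After 48 h they held 7.00, 12.99 and 11.54 scaled CPM, which were 137, 210 and 222 reads. Every salt library lay above every control library, and the libraries at 24 h and 48 h lay more than 10 times above those at 5 h. The control values were 5 to 8 reads per library, above the floor of 3 reads in each of them.

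**Figure D1:**
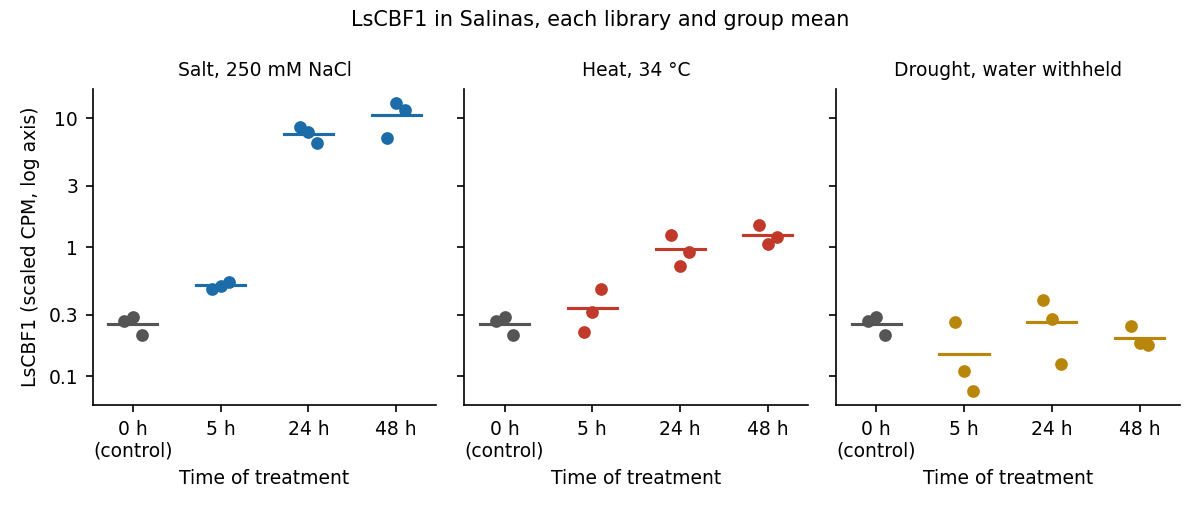
LsCBF1 in the Salinas libraries under salt, heat and drought (scaled CPM on a log axis) by time of treatment, with the same 3 control libraries at 0 h in each panel. Points are libraries and bars are group means, and salt at 24 h and 48 h stood above all other groups, heat at 24 h and 48 h lay between, and drought overlapped the control at each time.

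The mean was 7.58 ± 1.04 scaled CPM at 24 h of salt and 10.5 ± 3.12 at 48 h, against 0.256 ± 0.040 in the control (SD, n = 3 each). LsCBF1 rose by a log2 fold change of 3.41 at 24 h (SE 0.19, limma adjusted p 8.80e-14) and 3.82 at 48 h (SE 0.19, limma adjusted p 1.93e-15). Over the summed reads, the level was 29.4 times that of the control at 24 h (95% interval 18.6 to 49.2) and 40.2 times at 48 h (25.5 to 67.3). Many genes changed under salt at these times, with 29.2% of genes called at 24 h and 42.8% at 48 h. LsCBF1 ranked 460th of 23231 genes by log2 fold change at 24 h and 751st at 48 h. With each library scaled to a sum of 1000000, the median gene moved by -0.23 on the log2 scale at 24 h and by -0.51 at 48 h, and LsCBF1 still rose by 3.31 at 24 h and 3.44 at 48 h.

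At 5 h of salt the mean was 0.506 ± 0.034 scaled CPM, with a log2 fold change of 0.41 (95% interval 0.02 to 0.81, limma adjusted p 0.0923), so LsCBF1 was not called although the 3 salt libraries lay above the 3 control libraries. At that time 6.39% of genes were called. In reads the ratio was 1.97 (1.13 to 3.57), over 44 reads under salt and 19 in the control. Between times, LsCBF1 was higher at 24 h than at 5 h of salt by 2.997 (limma adjusted p 4.18e-12), a comparison in which 18.7% of genes were called and LsCBF1 ranked 230th. Between 24 h and 48 h the libraries overlapped, and the difference of 0.41 was not called (limma adjusted p 0.0721, 11.8% of genes called). With only the 6 libraries compared, limma called 0 genes between these times, with 10259 at an unadjusted p under 0.05, while edgeR on all libraries called 3311 and DESeq2 3303. Clock times of treatment and harvest are not given in the sources used here. If all treatments began together, the 5 h samples fell at another time of day than those at 0 h, 24 h and 48 h. Stress and time of day then cannot be told apart where 5 h samples are set against the control or later times. Plants at 24 h and 48 h were also older than the control.

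Heat raised LsCBF1 to a lower level. Beside the 0.211 to 0.288 scaled CPM of the control at 0 h, LsCBF1 had 0.220, 0.317 and 0.476 scaled CPM after 5 h of heat. After 24 h it had 1.25, 0.720 and 0.917 scaled CPM, and after 48 h it had 1.48, 1.05 and 1.21. The libraries at 24 h and 48 h lay above all 3 control libraries, and those at 5 h overlapped them. The mean was 0.961 ± 0.266 at 24 h and 1.25 ± 0.214 at 48 h, against 0.256 ± 0.040 in the control (SD, n = 3 each). LsCBF1 rose by 1.20 on the log2 scale at 48 h (SE 0.19, limma adjusted p 8.96e-06), where 14.1% of genes were called, and it ranked 921st of 23231 genes. With pseudocount 2 this rise was 0.52 and was not called. In reads the ratio to the control was 4.85 (2.95 to 8.37). At 24 h the adjusted p of limma was 0.000245, but the log2 fold change of 0.94 (0.54 to 1.33) stood just under 1, so LsCBF1 was not among the 10.4% of genes called. Its read ratio was 3.75 (2.27 to 6.53) at 24 h, and edgeR on the recovered reads gave 1.87 with an adjusted p of 0.000199. At 5 h the difference was 0.14 (-0.25 to 0.53, limma adjusted p 0.592), while 6.03% of genes were called.

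Heat for 24 h differed from heat for 5 h by 0.80 (limma adjusted p 0.00203), under the fold threshold, and edgeR gave 1.51 with an adjusted p of 0.00143. In that comparison 5.95% of genes were called. From 24 h to 48 h of heat the libraries overlapped, with a difference of 0.27 (limma adjusted p 0.507, 0.448% of genes called).

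Drought did not change LsCBF1 detectably at this depth, and a fall could not have been called. The control mean of 0.256 scaled CPM was too low for even a complete loss to reach the fold threshold. The drought libraries held 0.262, 0.110 and 0.077 scaled CPM at 5 h, 0.389, 0.280 and 0.125 at 24 h, and 0.244, 0.180 and 0.175 at 48 h, which were 2 to 11 reads. They overlapped the control values of 0.211 to 0.288 at all 3 times. The log2 fold change was -0.23 at 5 h (-0.62 to 0.16), 0.00 at 24 h (-0.39 to 0.40) and -0.11 at 48 h (-0.50 to 0.28), with limma adjusted p values of 0.589, 0.998 and 0.716. Drought moved few genes in these plants, with 0.779%, 0.194% and 3.22% of genes called at the 3 times. With only the libraries compared, 1 gene was called at 24 h, in place of 45. At the 5 h time point, reads summed to 13 under drought, against 19 in the control, a ratio of 0.602 (0.273 to 1.29). Between the drought times LsCBF1 differed by 0.23 from 5 h to 24 h and by -0.11 from 24 h to 48 h (limma adjusted p 0.516 and 0.799, 0.405% and 0.792% of genes called). With only the libraries compared, 2 genes in place of 94 were called from 5 h to 24 h. From 24 h to 48 h limma then called 0 in place of 184, with 4374 at an unadjusted p under 0.05, while edgeR on all libraries called 226 and DESeq2 315.

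Set against each other at the same time, the stresses separated at 24 h and 48 h. Salt exceeded heat by 2.47 on the log2 scale at 24 h (95% interval 2.08 to 2.87, limma adjusted p 3.52e-11) and by 2.62 at 48 h (2.23 to 3.01, limma adjusted p 3.35e-12). Salt exceeded drought by 3.41 at 24 h (3.01 to 3.80, limma adjusted p 1.02e-13) and by 3.93 at 48 h (3.54 to 4.33, limma adjusted p 1.51e-15). No salt library overlapped a heat or drought library at these times. For salt against heat, 24.6% of all genes were called at 24 h and 41% at 48 h, and for salt against drought 28.8% at 24 h and 40.4% at 48 h. Heat exceeded drought by 0.93 at 24 h (0.54 to 1.33, limma adjusted p 0.000296), which missed the fold threshold, in a comparison with 8.5% of genes called. EdgeR gave 1.87 for it, with an adjusted p of 0.000173. At 48 h heat exceeded drought by 1.31 (0.92 to 1.71, limma adjusted p 4.20e-06), where 10.6% of genes were called and LsCBF1 ranked 462nd of 23231. With pseudocount 2 that difference was 0.56 and was not called.

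**Figure D2:**
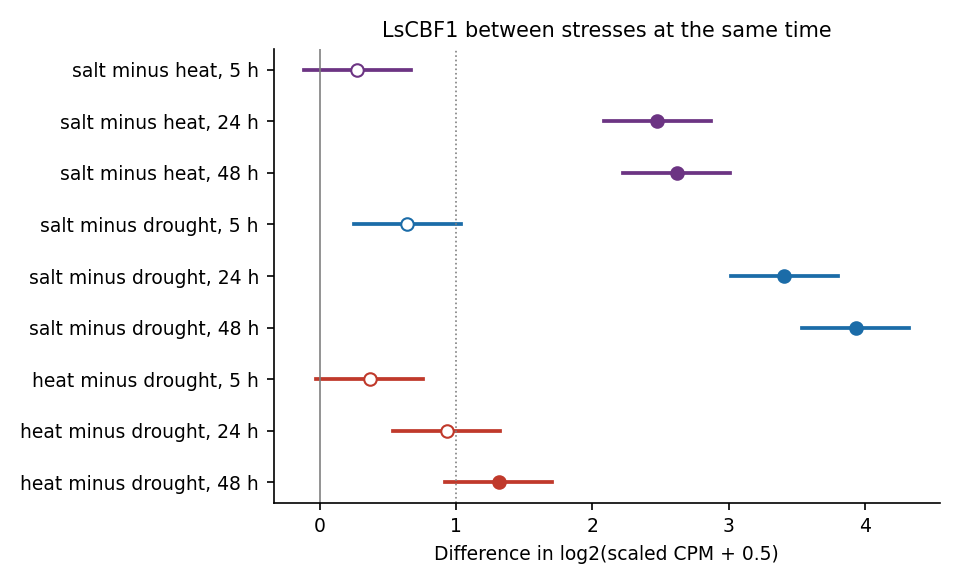
Differences of LsCBF1 between stresses at the same time, in log2(scaled CPM + 0.5), with 95% intervals from the limma fit over 30 libraries. Filled points were called, open points were not, and the dotted line marks the fold threshold of 1. Salt exceeded heat and drought by 2.47 to 3.93 at 24 h and 48 h, and the 5 h differences were all below the threshold.

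At 5 h none of the 3 pairs was called. Salt differed from drought by 0.64 (0.25 to 1.03, limma adjusted p 0.0123, 4.12% of genes called), and the salt libraries of 0.473 to 0.541 scaled CPM all lay above the drought libraries of 0.077 to 0.262. EdgeR called this difference, at 1.70 with an adjusted p of 0.00430, where the counts were 44 reads under salt and 13 under drought. Salt differed from heat by 0.27 (-0.12 to 0.67, limma adjusted p 0.222, 13.3% of genes called) and heat from drought by 0.37 (-0.03 to 0.76, limma adjusted p 0.12, 7.16% of genes called), with overlapping libraries in each pair. Averaged over the 3 times, with labels permuted within each time, salt exceeded heat by 1.79 (exact permutation p 0.0005), salt exceeded drought by 2.66 (exact permutation p 0.00025, the smallest that the 8000 arrangements can give) and heat exceeded drought by 0.87 (exact permutation p 0.0005). These tests are two-sided, and each p was 0.0005 after adjustment over the 3 pairs.

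The groups of Salinas can be placed in an order of their mean level. Salt at 48 h (10.5 scaled CPM) and salt at 24 h (7.58) came first, followed by heat at 48 h (1.25), heat at 24 h (0.961), salt at 5 h (0.506), heat at 5 h (0.338), drought at 24 h (0.265), control (0.256), drought at 48 h (0.20) and drought at 5 h (0.150). Neighbours in this order overlapped in their libraries, except at the steps from salt at 24 h to heat at 48 h and from heat at 24 h to salt at 5 h. LsCBF1 reached 0.5 scaled CPM in 14 of 30 libraries, all of them under salt or heat. It passed the filter on low values, at least 0.5 in at least 2 libraries, through these groups.

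In the cold, the only called change of LsCBF1 from 0 h was a rise at 4 h in UC96US23. In UC96US23 after 4 h at 4 °C the libraries held 1.79, 0.817 and 1.13 CPM, against 0.050, 0 and 0.144 CPM at 0 h. In PI 284702 after 4 h they held 0.383, 0.634 and 0.569 CPM, against 0.051 and 0.036 CPM at 0 h. In both cultivars all 4 h libraries lay above all 0 h libraries. The 0 h libraries held 3 reads or fewer each, so these reference levels rest on 4 reads in UC96US23 and 2 reads in PI 284702.

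**Figure D3:**
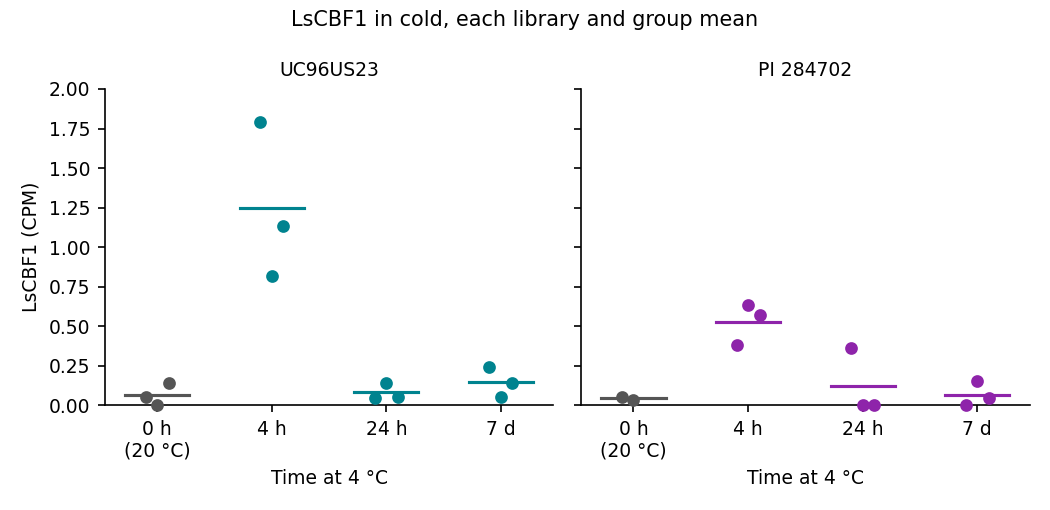
LsCBF1 (CPM, linear axis from 0) in UC96US23 and PI 284702 at 0 h and after 4 h, 24 h and 7 days at 4 °C. Points are libraries and bars are group means. The 4 h libraries stood at 0.817 to 1.79 CPM in UC96US23 and at 0.383 to 0.634 CPM in PI 284702, and all libraries at other times lay at or below 0.360 CPM.

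The mean in UC96US23 was 1.25 ± 0.498 CPM at 4 h, against 0.065 ± 0.073 CPM at 0 h (SD, n = 3 each). LsCBF1 rose there by 1.60 on the log2 scale (SE 0.22, limma adjusted p 8.95e-06), ranking 324th of 23443 genes, of which 6.63% were called. The read ratio was 19.3 (7.21 to 72.8), over 69 reads at 4 h and 4 reads at 0 h. Fitted on the 6 libraries compared alone, the difference of 1.60 had an adjusted p of 0.0123 by limma and was not called. In that fit 2.43% of genes were called. With pseudocount 2 the difference was 0.64 and not called. In PI 284702 the mean was 0.529 ± 0.130 CPM at 4 h (SD, n = 3), against 0.044 ± 0.010 CPM at 0 h (SD, n = 2). Its log2 fold change of 0.91 (0.40 to 1.43, limma adjusted p 0.0113) was not called, in a comparison with 4.11% of genes called (2.45% with only the libraries compared). The read ratio there was 12.1 (3.07 to 104), over 32 reads and 2 reads.

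At 24 h and 7 days in the cold, LsCBF1 was again at a few reads per library. UC96US23 had 0.046, 0.144 and 0.056 CPM at 24 h and 0.241, 0.052 and 0.143 CPM at 7 days. PI 284702 had 0.360, 0 and 0 CPM at 24 h and 0, 0.154 and 0.048 CPM at 7 days. All of these groups overlapped the 0 h libraries of their cultivar, and the 7 reads of PI 284702 at 24 h all came from replicate 1. Against 0 h, the log2 fold changes in UC96US23 were 0.05 at 24 h (-0.41 to 0.51) and 0.19 at 7 days (-0.27 to 0.65), and in PI 284702 they were 0.14 at 24 h (-0.37 to 0.65) and 0.05 at 7 days (-0.46 to 0.57). None was called (limma adjusted p 0.514 to 0.897). In reads the ratio to 0 h in UC96US23 was 1.28 (0.275 to 6.43) at 24 h and 2.28 (0.659 to 9.98) at 7 days. In PI 284702 it was 2.54 (0.483 to 25.0) at 24 h and 1.55 (0.222 to 17.1) at 7 days, so changes of several fold could not be resolved at this depth. In UC96US23 12.2% of all genes were called at 24 h and 9.07% at 7 days, and in PI 284702 9.73% and 9.9%, so most genes were likewise not called. LsCBF1 was lower at 24 h than at 4 h in UC96US23 by a log2 difference of -1.55 (limma adjusted p 6.80e-06, 9.33% of genes called), which with pseudocount 2 was -0.63 and not called. In PI 284702 this difference was -0.77 (limma adjusted p 0.00823, 6.86% of genes called), under the fold threshold, and without replicate 1 at 24 h it was -1.03 and called. From 24 h to 7 days the differences were 0.14 in UC96US23 and -0.09 in PI 284702, with limma adjusted p values of 0.655 and 0.796 and 4.96% and 5% of genes called. Clock times are not given for these libraries either, so at 4 h cold and a possible difference in time of day cannot be told apart.

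At 4 h all 3 UC96US23 libraries lay above the 3 PI 284702 libraries, 0.817 to 1.79 CPM against 0.383 to 0.634 CPM. The difference was 0.74 (0.28 to 1.19, limma adjusted p 0.00939), below the fold threshold, in a comparison with 12.4% of genes called. The read ratio of UC96US23 to PI 284702 was 2.44 (1.58 to 3.84). As a difference in the response to cold, taken against each cultivar's own 0 h, it was 0.69 (0.00 to 1.38) and was not called (limma p 0.0501 before and 0.304 after adjustment, 0.137% of genes called). Over the 3 cold times together, UC96US23 exceeded PI 284702 by 0.29 (exact permutation p 0.0788). At 0 h, 24 h and 7 days the cultivars differed by 0.05, -0.05 and 0.19, with overlapping libraries, limma adjusted p values of 0.540 or more, and 9.9%, 10.2% and 10.6% of genes called. The differences in cold response at 24 h and 7 days were -0.09 and 0.14 and were not called (limma adjusted p 0.926 and 0.891, 0.661% and 0.674% of genes called). The level order in the cold table was UC96US23 at 4 h, PI 284702 at 4 h and then the other groups, in which neighbours overlapped. LsCBF1 reached 0.5 CPM in 5 of 23 libraries, all at 4 h, and passed the filter through them.

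The 4 h cold means of 1.25 and 0.529 CPM stand beside 10.5 scaled CPM under salt at 48 h and 1.25 scaled CPM under heat at 48 h. These come from other cultivars, times and a table normalized separately, and were not compared.

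Of the 14 LsCBF genes, 10 were listed and 7 tested in Salinas, and 11 were listed and 10 tested in the cold libraries. LsCBF1 lies apart from most of them, on linkage group 2, whereas 12 lie on linkage group 9 and LsCBF2 lies on linkage group 6. Under salt, 3 of the 7 LsCBF genes were called higher and 2 lower at both 24 h and 48 h. Of all genes 15.3% were called higher and 13.9% lower at 24 h, and 21% higher and 21.7% lower at 48 h. The even split of all genes depended on the scaling, since with each library scaled to a sum of 1000000 it was 12.5% higher and 18.8% lower at 24 h and 14.6% higher and 32.4% lower at 48 h. The genes that rose were LsCBF1, LsCBF3 and LsCBF4, and those that fell were LsCBF7 and LsCBF14. None of the genes that rose had a control library at 0.5 scaled CPM, and LsCBF4 passed the filter through its salt libraries. LsCBF5, LsCBF9 and LsCBF10 stayed below 0.5 in all Salinas libraries and were not tested. The counts of genes called higher and lower are therefore a description. The LsCBF median log2 fold change was -0.46 at 48 h, and that of all genes was -0.01. Under heat, LsCBF1 was the LsCBF gene called higher at 48 h, where LsCBF14 was called lower. At 5 h and 24 h the gene called higher was LsCBF11, while LsCBF1 at 24 h missed only the fold threshold, at 0.94. Of all genes 5.85% were called higher and 8.23% lower at 48 h of heat, and 3.67% and 4.86% were called higher at 5 h and 24 h. Under drought, LsCBF3 and LsCBF11 rose at 48 h, where 1.89% of all genes were called higher, and no LsCBF gene was called at 5 h or 24 h. Among the 24 group III genes tested, LsCBF1 had the second largest log2 fold change at 24 h and 48 h of salt, after LsCBF4, and at 48 h of heat, after LsERF042. In group III, 4 genes rose and 12 fell at 48 h of salt, and at 48 h of heat 2 rose and 1 fell.

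**Figure D4:**
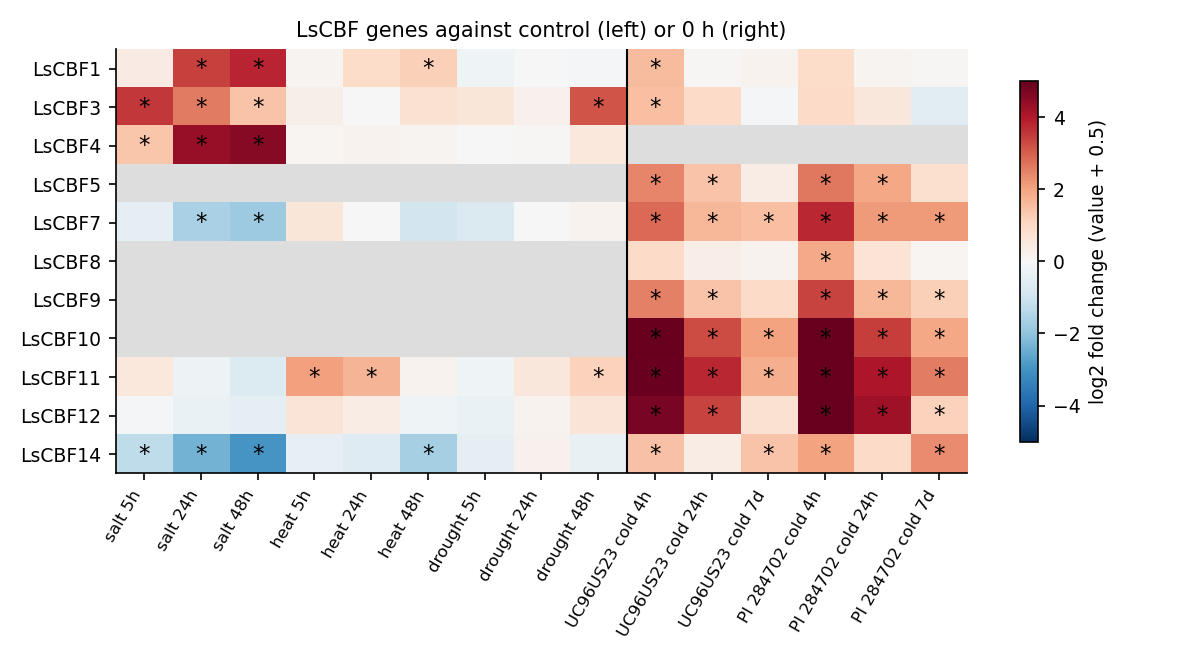
Log2 fold changes, on the value + 0.5 scale, of the LsCBF genes under each stress against the control in Salinas (left of the line) and in cold against 0 h (right of the line). Stars mark called changes, grey marks genes not tested in that table, and colours end at 5 in either direction. LsCBF1 was called under salt at 24 h and 48 h, heat at 48 h and cold at 4 h in UC96US23.

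LsCBF3 and LsCBF4, neighbours on linkage group 9, were called higher at all 3 times of salt. Per kb of exon, LsCBF1 stood at 17.7 scaled CPM and LsCBF4 at 17.4 after 48 h of salt. LsCBF4 had 0 reads in all 3 control libraries and averaged 0.840 ± 0.266 scaled CPM at 5 h, 10.1 ± 3.41 at 24 h and 11.7 ± 3.34 at 48 h (SD, n = 3 each). With 3 reads per control library as the floor, LsCBF4 at 48 h exceeded the control at least 95.2-fold. LsCBF3 averaged 0.256 ± 0.193 scaled CPM in the control, 8.07 ± 1.53 at 5 h of salt, 4.10 ± 0.870 at 24 h and 1.54 ± 0.387 at 48 h, so its highest mean was the earliest. It rose by 3.52 at 5 h of salt (limma adjusted p 2.06e-08), where LsCBF1 changed by 0.41. At 48 h of drought it rose by 3.16 (limma adjusted p 4.12e-07), where LsCBF1 had -0.11.

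Within libraries, the log2 ratio of LsCBF1 to LsCBF3 averaged 2.41 ± 0.62 at 48 h of salt and -3.07 ± 0.31 at 5 h (SD, n = 3 each). The difference of 5.48 gave an exact permutation p of 0.1, the smallest that 3 against 3 libraries allow, and the ratios did not overlap. The ratio to LsCBF4, taken the same way, averaged -0.15 ± 0.02 at 48 h and -0.39 ± 0.32 at 5 h, a difference of 0.24 (exact permutation p 0.4). LsCBF1 averaged 0.506 scaled CPM at 5 h, so the added 0.5 makes both ratios at that time smaller in size.

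**Figure D5:**
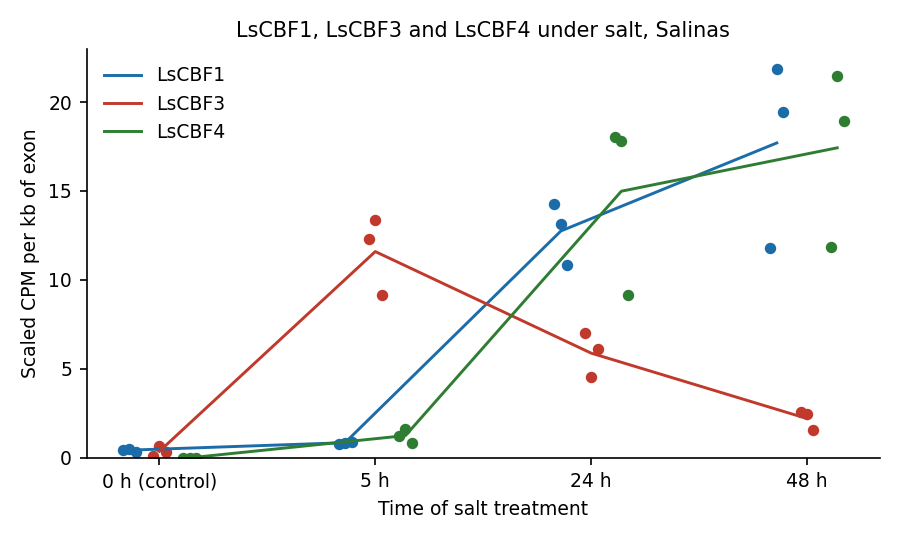
LsCBF1, LsCBF3 and LsCBF4 in the Salinas control and after 5 h, 24 h and 48 h of salt (scaled CPM per kb of exon, linear axis from 0). Points are libraries and lines join group means. LsCBF3 was highest at 5 h, and LsCBF1 and LsCBF4 were highest at 48 h, at 17.7 and 17.4 scaled CPM per kb.

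Other LsCBF genes went down where LsCBF1 went up. LsCBF14 averaged 1.09 ± 0.142 scaled CPM at 48 h of salt, against 11.9 ± 0.992 in the control, a log2 fold change of -2.96 (limma adjusted p 1.27e-12). LsCBF7 averaged 0.663 ± 0.124 at 48 h of salt, against 3.64 ± 0.788 in the control (SD, n = 3 each), a log2 fold change of -1.82 (limma adjusted p 1.23e-07). With libraries scaled to 1000000 both were also called lower.

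In cold, most LsCBF genes rose with LsCBF1 at 4 h. Of the 10 tested, 9 rose in UC96US23 and 8 in PI 284702, and none fell. LsCBF1, LsCBF5, LsCBF8, LsCBF9 and LsCBF10 had no 0 h library at 0.5 CPM and passed the filter only through cold libraries. From such levels a fall could not reach the fold threshold, and LsCBF4 was listed but not tested. The counts and medians of these 10 genes are therefore a description. In UC96US23, 4.3% of all genes were called higher at this time and 3.41% in PI 284702. The LsCBF medians were 2.49 and 3.01 in these cultivars, above the 1.60 and 0.91 of LsCBF1. LsCBF11 in UC96US23 averaged 111 ± 16.2 CPM at 4 h, against 3.07 ± 0.186 CPM at 0 h (SD, n = 3 each). In PI 284702 it averaged 94.9 ± 9.75 CPM at 4 h, against 2.20 ± 0.117 CPM at 0 h. Its log2 fold changes were 4.96 and 5.14 (limma adjusted p 2.98e-16 and 1.92e-15). Per kb of exon LsCBF11 stood at 175 CPM at 4 h in UC96US23, against 2.10 CPM for LsCBF1. At 24 h, when LsCBF1 was not called against 0 h, 6 of the 10 LsCBF genes were still called higher in each cultivar, against 6.23% of all genes in UC96US23 and 5.9% in PI 284702 (6.1% and 5% with libraries centred on their median).

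The group III genes nearest to LsCBF1 on linkage group 2 had another pattern. LsERF029, LsERF030, LsERF031, LsERF032 and LsERF033 lie within 1 Mb of it, and LsERF031 and LsERF033 were listed in neither table. LsERF029, LsERF030 and LsERF032 each had their highest Salinas mean at 5 h of drought, where LsCBF1 had its lowest. LsERF030 averaged 63.8 ± 9.27 scaled CPM at 5 h of drought, against 7.47 ± 1.64 in the control (SD, n = 3 each), a rise of 3.02 (limma adjusted p 2.43e-05). LsERF032 averaged 7.36 ± 1.77 at 5 h of drought, against 0.804 ± 0.464 in the control, a rise of 2.64 (limma adjusted p 0.00102) that was not called by edgeR (adjusted p 0.0141), by DESeq2 (adjusted p 0.0327) or without control replicate 1 (2.30, limma adjusted p 0.0126). LsERF029 averaged 1.15 ± 0.182 at 5 h of drought, against 0.156 ± 0.137 in the control, a rise of 1.35 (limma adjusted p 0.00106). All 3 genes were also called higher at 5 h of salt, by 1.06 for LsERF029, 2.30 for LsERF030 and 1.62 for LsERF032. Of all genes, 4.67% were called higher at 5 h of salt and 0.542% at 5 h of drought. LsERF029 reached 0.5 scaled CPM only under drought and at 5 h of salt and passed the filter through these libraries, so its rises there are a description. At 48 h of salt, where LsCBF1 was highest, none of the 3 was called higher. LsERF029 and LsERF030 had log2 fold changes of -0.26 and 0.02 there, and LsERF032 had 0 reads in all 3 libraries. In cold at 4 h neither LsERF030 nor LsERF032 was called in either cultivar.

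Across the 30 Salinas libraries, the AP2/ERF genes most like LsCBF1 by Pearson correlation of log2(value + 0.5) were LsERF165 (r = 0.97), LsERF163 (0.97), LsERF162 (0.97), LsERF164 (0.96) and LsERF002 (0.96). The first 4 belong to group IX and have neighbouring identifiers on linkage group 6, and LsERF002 belongs to group I. The libraries are not independent of the stress groups, so r here mostly describes the difference of salt at 24 h and 48 h from the rest. The genes named here were chosen by r over these libraries, so their values under salt are a description. LsERF162 averaged 367 ± 71.8 scaled CPM at 48 h of salt, against 2.02 ± 0.072 in the control, a log2 fold change of 7.17. LsERF163 and LsERF165 had log2 fold changes of 5.69 and 5.33 at the same time. The lowest r was that of LsERF053 (-0.94) and LsERF080 (-0.91), with log2 fold changes of -3.64 and -4.14 at 48 h of salt. Among the LsCBF genes r was 0.92 for LsCBF4, which ranked 20th of 152 family genes, 0.22 for LsCBF3 and -0.90 for LsCBF14. Over all genes tested, Lsat_1_v5_gn_4_129660.1 and Lsat_1_v5_gn_8_20940.1 had the highest r (0.98 and 0.97), and Lsat_1_v5_gn_4_182780.1 and Lsat_1_v5_gn_5_154661.1 the lowest (-0.97 each).

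Across the 23 cold libraries, r was highest for LsERF188 (0.86), LsERF009 (0.85), LsERF116 (0.83), LsERF133 (0.81) and LsERF104 (0.80), none of which was among the 5 highest of Salinas. These values describe the 4 h groups against the rest, and the levels of the genes chosen by them are given with no test. LsERF188 averaged 21.7 ± 3.29 CPM in UC96US23 at 4 h, against 7.22 ± 1.27 CPM at 0 h (SD, n = 3 each), a log2 fold change of 1.53. LsERF009 averaged 29.5 ± 4.10 CPM there, against 3.79 ± 0.289 CPM at 0 h, a log2 fold change of 2.80. Among the LsCBF genes r was highest for LsCBF10 (0.73) and lowest for LsCBF14 (0.13). LsERF001 had the lowest r (-0.80), with 10.4 ± 0.996 CPM in UC96US23 at 4 h, against 29.9 ± 3.01 CPM at 0 h, a log2 fold change of -1.48. The next lowest was LsERF023 (-0.65). Over all genes tested, r was highest for Lsat_1_v5_gn_3_40660.1 and Lsat_1_v5_gn_3_15221.1 (0.89 each) and lowest for Lsat_1_v5_gn_8_73881.1 and Lsat_1_v5_gn_7_108740.3 (-0.88 and -0.87).

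In Salinas, LsCBF1 was called higher under salt at 24 h and 48 h and under heat at 48 h. It had no other call against the control, from whose low level a fall could not have reached the fold threshold. Of the 23231 genes tested, 56 others shared this set of calls, and of 152 other family genes tested 1 did, LsERF087. In cold, the single call of LsCBF1 at 4 h in UC96US23 was shared by 226 other genes of the 23443 tested. Of 139 other family genes tested, 7 shared it, LsCBF3 and LsERF116 among them. PI 284702 at 4 h missed a call at 0.91 with a limma adjusted p of 0.0113, so this match rests on the thresholds.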

How the data were processed

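For Salinas, STAR 2.5.2 alignment to version 8 of the lettuce genome and gene counts from featureCounts were used by the authors. The values they deposited are a signal, CPM whose library sizes carry a factor of their own (sums 815104 to 1273638). The UC96US23 and PI 284702 values are deposited CPM that sum to 1000000 in every library. The cold data of the paper are described as taken from elsewhere, so its account of read processing was not applied to these libraries. For them the submitters' notes name STAR, featureCounts and edgeR. Their light conditions, as given above, are those in the study's methods for cold. Whether these libraries are the same data is unclear. CPM had been assumed for Salinas, and the log-scale test was kept. Divided by the value of a single read, 100% of values above 0 came out whole (within 0.01 of a read) in either table. No column was left out.

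A gene was tested if 2 or more libraries of its table reached 0.5 (23231 of 23292 in Salinas, 23443 of 23933 in the cold table). In R 4.3.3, limma 3.58.1 (lmFit, then contrasts.fit and eBayes with trend) was fitted on log2(value + 0.5) with all groups of a table, and p-values were adjusted per comparison over all genes. In all, 41 comparisons were made. Chi-square per gene between replicates was 3.63 to 75.6, so none was a repeat. The Salinas replicates are described as biological, from plants in a randomized block layout that were rotated, with no block given for a replicate number. For the other cultivars p-values measure only the spread between samples.

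The alternatives were pseudocounts of 0.1 and 2, no filter, median centring, sums of 1000000, only the libraries compared, a block for the replicate number, edgeR 4.0.16 with TMM and DESeq2 1.42.0 on the recovered reads, and each library left out. The fits were also run on simulated counts with few genes changed and no separate library factor, a setting that does not cover the salt comparisons. Python 3.11.15 with scipy 1.17.1 was used for permutation tests and read ratios (exact 95% intervals).

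The genes named are LsCBF1, other LsCBF genes, group III genes within 1 Mb, and the AP2/ERF genes with the 5 highest and 2 lowest r in each table (over all genes, the 2 highest and 2 lowest). Gene names, groups and positions come from the study's supplementary gene list. LsERF042 and LsERF087 were named after their values were seen. The gene and the lists were chosen with earlier results of these data known. No gene description matched the identifiers, so lists of CBF regulators and targets, marker genes, promoters and protein sequences were not used here.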

Additional observations from a re-analysis of the deposited data

Results flagged for a closer look

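LsCBF1 differed between times within a treatment in 2 comparisons, by the test of the difference itself. Under salt it was higher at 24 h than at 5 h by 2.997 on the log2 scale, at 7.58 ± 1.04 scaled CPM and 0.506 ± 0.034 scaled CPM (SD, n = 3 each). In UC96US23 it was lower at 24 h than at 4 h in the cold by -1.55 (with pseudocount 2 -0.63 and not called), at 0.082 ± 0.054 CPM and 1.25 ± 0.498 CPM (SD, n = 3 each). Salt and cold thus gave opposite courses between the first and the second harvest, in different cultivars and tables, and this difference was not tested. Clock times of harvest are not given in the sources used here, and a part of time of day in either result was not tested.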

How the results depend on the processing

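The rises under salt at 24 h and 48 h, and the differences of salt from heat and drought at those times, were called under each alternative run, over log2 values of 1.69 to 5.75. LsCBF1 under heat at 24 h against the control, not called at 0.94, was called with pseudocount 0.1 (1.55), sums of 1000000 (1.04), edgeR (1.87), DESeq2 (1.88) and without heat 24 h replicate 2 (range of leaving out each library 0.80 to 1.06). Heat against drought at 24 h was called with the same settings (1.58, 1.05, 1.87 and 1.87) and without drought 24 h replicate 1 or heat 24 h replicate 2 (range 0.80 to 1.06). Also called were salt against drought at 5 h (pseudocount 0.1 1.35, edgeR 1.70, DESeq2 1.71) and heat at 24 h against 5 h (1.29, 1.51 and 1.54).

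With pseudocount 2 these fell under the fold threshold: heat at 48 h against the control (0.52) and drought (0.56), UC96US23 at 4 h against 0 h (0.64) and at 24 h against 4 h (-0.63). UC96US23 at 4 h was also lost with only the libraries compared (1.60). PI 284702 at 24 h against 4 h was called with pseudocount 0.1 (-1.90) and without replicate 1 at 24 h (range -1.03 to -0.64).

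Signs of differences near 0 turned. Drought at 24 h against the control was -0.030 with pseudocount 0.1, -0.013 with median centring and -0.0088 with sums of 1000000 (range on leaving out libraries -0.11 to 0.14). With centring, PI 284702 at 7 days against 0 h was -0.16 (range -0.055 to 0.14) and UC96US23 against PI 284702 at 0 h was -0.0058 (range -0.051 to 0.13). At 24 h of cold, UC96US23 against PI 284702 was 0.091 with pseudocount 0.1 (range -0.18 to 0.21). Ranges crossed 0 for drought at 48 h against 24 h (-0.25 to 0.0012), UC96US23 at 24 h (-0.037 to 0.15) and PI 284702 at 24 h (-0.12 to 0.27) against 0 h, PI 284702 at 7 days against 24 h (-0.22 to 0.17) and the interaction at 24 h (-0.22 to 0.17). The cause of these changes was not tested.

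Same-numbered replicates deviated together little in Salinas (135 pairs, r -0.28 to 0.32, median -0.01, against 0.002 for other pairs), with 10 of 30 libraries closest to their own number. In the cold libraries r was -0.20 to 0.22 over 77 pairs (median 0.03, against -0.01 for other pairs), with 12 of 23 closest to their own number. No source ties a number to a block of the randomized layout in Salinas, and the cold labels give only the number. The numbers were therefore not taken as pairing the samples. With the replicate number as a block, no call of LsCBF1 changed in 41 comparisons, and the fold change under salt at 48 h was 3.82.

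Counts of genes called over the whole table were over 1.5 times lower with pseudocount 2 in 30 comparisons, for example 1982 of 3273 genes under heat at 48 h, and 9 changed as much with only the libraries compared, from 0 of 2743 genes between 24 h and 48 h of salt to 1435 of 2188 genes between 4 h and 24 h of cold in UC96US23. DESeq2 gave no adjusted p for LsCBF1 in 3 cold comparisons. At 5 h and in drought, and in cold at times other than 4 h, LsCBF1 rested on 44 reads or fewer per group, and intervals of the read ratio reached up to 25.0 in cold at 24 h and 7 days.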
